A study of Mus musculus with 4 samples.

Results

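The regions described here are AGO2 clusters in 3' UTRs of newborn mouse brain that lie at a seed match to the microRNA miR-9. They were chosen by position and sequence alone: the midpoint of the region lay in a 3' UTR of the GENCODE annotation of mm10 on the same strand and in no coding sequence, and the region with 25 bases added on each side held a match to bases 2 to 8 of miR-9-5p. Of 46860 clusters called in the wild-type library, 8599 were in 3' UTRs and 185 of those held such a match. Of 86106 clusters called in the knockout-labelled library, 10681 were in 3' UTRs and 243 held one. The authors' deposited table of wild type against knockout had 46862 regions, of which 8599 were in 3' UTRs and 185 held a match. Together the clusters marked 325 distinct sites in 299 genes.

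AGO2 was immunoprecipitated with the antibody EAG009 from the whole brain of newborn (postnatal day 0) mice of the C57BL/6 background, wild type or FMR1 ko, by eCLIP, in which the RNA left on the protein is sequenced and set against a size-matched input. Each genotype had 1 immunoprecipitate (IP) and 1 input, so no value below has a replicate and no test between genotypes was possible. The labels do not give the Fmr1 allele or the number of animals behind a library. In the 3' UTR of Fmr1, whose product FMRP binds RNA and is named in the series title beside AGO2, the wild-type IP gave 1 cluster of 4 reads (log2 over input 4.66) and the knockout-labelled IP 1 cluster of 3 reads (1.52), which does not show the loss of the transcript; a mutant allele can still be transcribed. For that reason the second library is called knockout-labelled. Each cluster carries the authors' −log10 p and log2 of reads in the IP over its own input. Read counts were recovered from those ratios, and an input count of 1 stands for at most 1 read. All 6 neuron markers examined had exonic clusters in both libraries. So did all 5 markers of neural progenitors and all 3 of astrocytes and radial glia. For the oligodendrocyte lineage it was 1 of 4 in wild type and 4 of 4 in the knockout-labelled library. Endothelial markers gave 1 of 3 and 3 of 3, and erythroid ones 1 of 3 (44 reads) and 2 of 3. Microglia gave 1 of 3 in each. Of 4 genes of other organs only Alb had one, of 6 reads, in wild type.

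MicroRNAs guide Argonaute proteins to mRNAs by pairing of their seed, bases 2 to 8, with the 3' UTR, and the mRNA is then repressed. miR-9 is among the most abundant microRNAs of the developing brain, where it is known to act on transcription factors and regulators of progenitors, on neuron differentiation and on axon growth. A match to bases 2 to 8 is called a 7mer-m8 site (ACCAAAG in DNA letters), and the same match followed by an A is an 8mer (ACCAAAGA), which usually represses more strongly. In the RefSeq table of mouse microRNAs only 1 mature name, miR-9-5p, which 3 loci encode, carried this seed. The sequences below, from RefSeq (GRCm38.p6) for the microRNA and from the mm10 genome for the sites, show how the same match lies in unrelated surroundings at the sites on which the results turn. Capitals mark the seed in the microRNA and its match in the mRNA, all written 5' to 3' on the transcript strand.

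mmu-miR-9-5p: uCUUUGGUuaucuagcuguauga
Pou2f1, site nearest the 3′ end of the UTR (chr1:165866343-165866372, minus strand, 8mer): atactagcctgatgcagatACCAAAGAcaa
Pou2f1, upstream site of the pair (chr1:165867168-165867197, minus strand, 8mer): ttttccatttccagccaaaACCAAAGAttt
Pou2f1, downstream site of the pair (chr1:165867122-165867151, minus strand, 8mer): actcaaaacaaacaaaaaaACCAAAGAaaa
Ankrd52 (chr10:128393973-128394002, plus strand, 7mer-m8): cctttgccttcaatatgtaACCAAAGgaaa
Map1b (chr13:99424888-99424917, minus strand, 7mer-m8): ccggttaactgaagcaaatACCAAAGcagg
Map3k1 (chr13:111746707-111746736, minus strand, 7mer-m8): tcctatagatttttcttctACCAAAGttca
Map2k7 (chr8:4246550-4246579, plus strand, 7mer-m8): ggtaccttcagaaaattttACCAAAGtaat
Smarcd2 (chr11:106263739-106263768, minus strand, 7mer-m8): ttgtaccagacatttccaaACCAAAGgctg
Cbx5 (chr15:103198706-103198735, minus strand, 8mer): cctcccaaagcattcctgtACCAAAGAggc
Scd1 (chr19:44397148-44397177, minus strand, 8mer): catatctaacagcctacttACCAAAGAccc
Anxa5 (chr3:36449226-36449255, minus strand, 7mer-m8): ttacactagtatgctaatgACCAAAGgtgt
Mdga1 (chr17:29832238-29832267, minus strand, 8mer): accaaagtgtccacatcgtACCAAAGActg
Ank2 (chr3:126923594-126923623, minus strand, 8mer): aactataagctaatttgtgACCAAAGAtag
Foxp2 (chr6:15438872-15438901, plus strand, 7mer-m8): tcaaaggctacagctgcaaACCAAAGccaa
Zfp266 (chr9:20499019-20499048, minus strand, 8mer): tttaaatattgacagtgacACCAAAGAtca

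The Mdga1 stretch also opens with the neighbouring match, in lower case.

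The sites marked by clusters comprised 129 8mers and 196 7mer-m8 sites with no following A. Of the 325 sites, 173 were marked in wild type, 238 in the knockout-labelled library and 86 in both. The called wild-type cluster held the whole match at 115 sites and the knockout-labelled cluster at 173, and the match otherwise reached into the 25 added bases. In 324 cases the match lay wholly within the 3' UTR, and at 3 sites a second gene was annotated. Some called regions touched: joined, the 185 wild-type regions formed 168 stretches and the 243 knockout-labelled regions 229.

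The matches sat at the centre of the clusters. Within 15 bases of the midpoint of wild-type 3' UTR clusters there were 0.455 miR-9 sites per kilobase of 3' UTR (121 sites), against 0.111 at 100 to 200 bases from it. In the knockout-labelled library the same densities were 0.5 (165 sites) and 0.0999. Over all annotated 3' UTRs of 9449 genes with an exonic cluster, wild-type clusters held 2.76 times the density found outside them, and knockout-labelled clusters 2.7 times. In clusters past the limits for enrichment it was 3.07 and 3.85 times. For let-7, another abundant microRNA of the brain, the ratios inside all clusters were 5.61 and 5.2, for miR-15/16 they were 2.01 and 2.24, and for miR-30 2.74 and 2.15. In enriched clusters these seeds also stood higher, at 7.04 and 10.9 for let-7, 2.44 and 2.65 for miR-15/16, and 3.38 and 3.58 for miR-30. These densities were taken over all 3' UTR clusters of a library, whether or not they held a match. For the ratios, the 25 added bases counted as inside. They are a description beside other seeds and not a test.

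**Figure D1:**
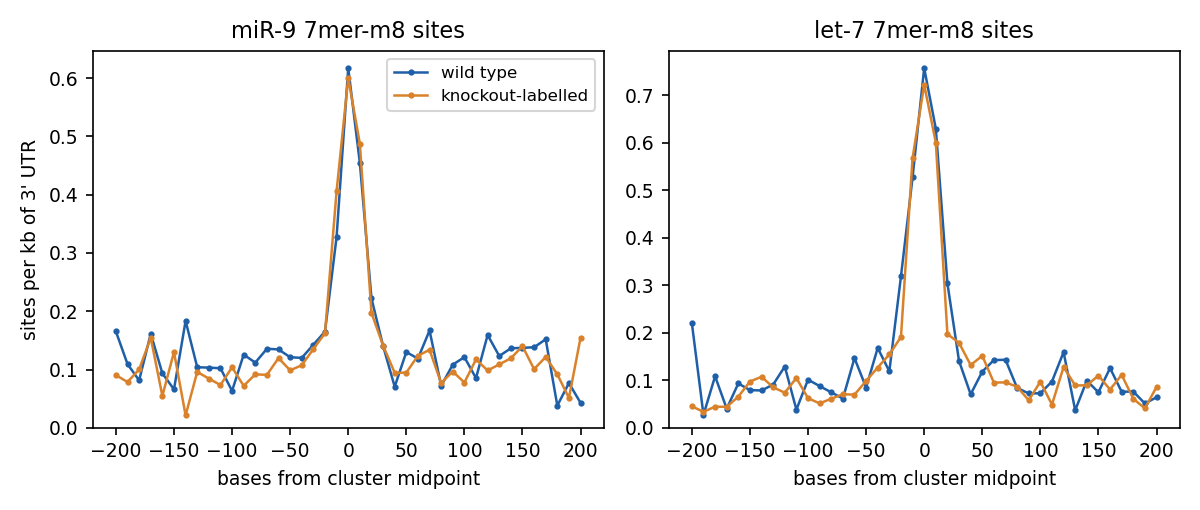
Density of 7mer-m8 sites for miR-9 (left) and let-7 (right) per kilobase of 3' UTR, in steps of 10 bases, against distance in bases from the midpoint of 3' UTR clusters of the wild-type (blue) and knockout-labelled (orange) libraries. Both seeds peak at the midpoint in both libraries, and miR-9 rises from 0.111 and 0.0999 miR-9 sites per kilobase at 100 to 200 bases to 0.455 and 0.5 within 15 bases.

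Most sites were in no cluster. In the 3' UTRs of the 9449 genes there were 1979 matches to bases 2 to 8, in 1620 genes, and 324 of them (16.4%) lay within 25 bases of a 3' UTR cluster of either library. 8mers were marked more often than 7mer-m8 sites. In wild type, 78 of 587 8mers were marked (13.3%, exact binomial interval 10.6 to 16.3%) against 95 of 1392 7mer-m8 sites (6.82%, 5.56 to 8.28%). In the knockout-labelled library the shares were 17% (14.1 to 20.3%) and 9.84% (8.33 to 11.5%). These intervals, all at 95%, cover counting error only, and sites of a gene share its RNA level. Matches with the A but without base 8 (7mer-A1), at 8.59% and 9.1%, lay near the 7mer-m8 sites, and matches to bases 2 to 7 alone (6mer) were lowest at 4.59% and 6.43%. The marked sites had about the same share of A and U in the 30 bases on each side as unmarked ones, with medians of 55% and 56.7%. Marked sites lay a median of 955 bases from the stop codon, against 1190 for unmarked sites. Of marked sites 39.8% were 8mers, and of sites in enriched clusters 49.5%, against 27.7% of unmarked sites.

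**Figure D2:**
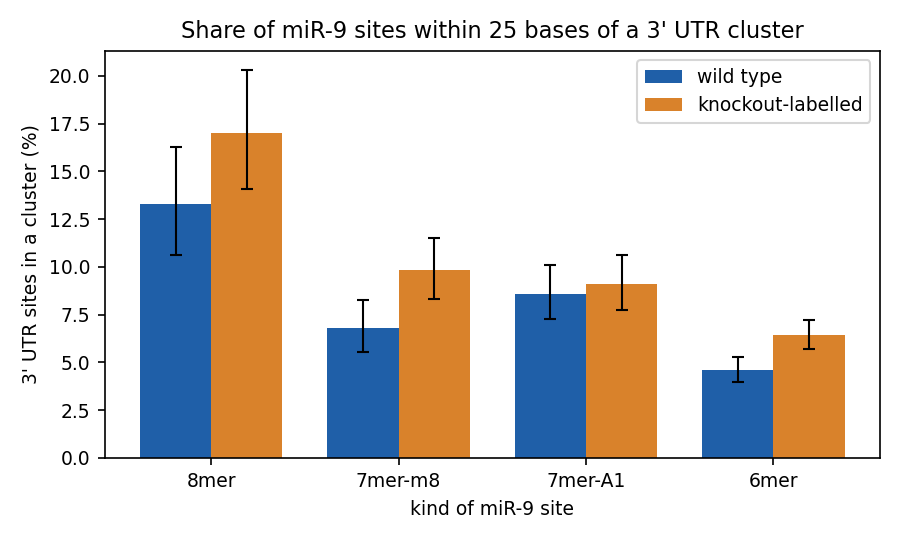
Share in percent of miR-9 sites in the 3' UTRs of genes with an exonic cluster that lay within 25 bases of a 3' UTR cluster, by kind of site and library, with 95% exact binomial intervals. 8mers stand highest, at 13.3% for wild type and 17% for the knockout-labelled library, and 6mers lowest, at 4.59% and 6.43%. Between them, the 7mer-A1 bar is above the 7mer-m8 bar in wild type (8.59% and 6.82%) but not in the knockout-labelled library (9.1% and 9.84%).

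A cluster was called enriched where the authors' −log10 p and log2 over input were both at least 3. In wild type, 87 of the 185 miR-9 clusters were enriched (47%, 39.7 to 54.5%), against 37.1% of all 3' UTR clusters. In the knockout-labelled library 41 of 243 were (16.9%, 12.4 to 22.2%), against 8.98% of its 3' UTR clusters. Both shares stood above the background of their library by more than the counting error. Clusters at an 8mer were enriched in 54.2% (42.9 to 65.2%) of wild-type cases and 23.8% (15.9 to 33.3%) in the knockout-labelled library, and those at a 7mer-m8 site alone in 41.2% (31.5 to 51.4%) and 12% (7.13 to 18.5%), with overlapping intervals. Clusters with let-7 sites stood higher than miR-9 clusters in both libraries. Their shares were 55.4% (48.9 to 61.8%) in wild type, where the intervals overlapped, and 27.5% (22.5 to 32.9%) in the knockout-labelled library. Those with miR-15/16 and miR-30 sites were within the counting error of the miR-9 share in both libraries.

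The limits asked for more reads in the knockout-labelled library, whose input was shallower beside its IP. The wild-type input had 6.337 times as many reads as its IP, and the knockout-labelled input only 1.918 times as many. An enriched miR-9 cluster had at least 5 IP reads in wild type, and 9 was the fewest in the other library. At Fyttd1, 9 IP reads over at most 1 input read gave a log2 of 5.83 for wild type but 4.11 for the knockout-labelled library. A count or a log2 over input in one library therefore cannot be set directly against the other, and the 2 libraries are compared below through the background of each. Over clusters with 9 or more IP reads, a class chosen after the values were seen, 38 of 38 miR-9 clusters were enriched in wild type against 90.3% of 3' UTR clusters, and 41 of 49 (83.7%, 70.3 to 92.7%) in the knockout-labelled library against 61.9%.

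**Figure D3:**
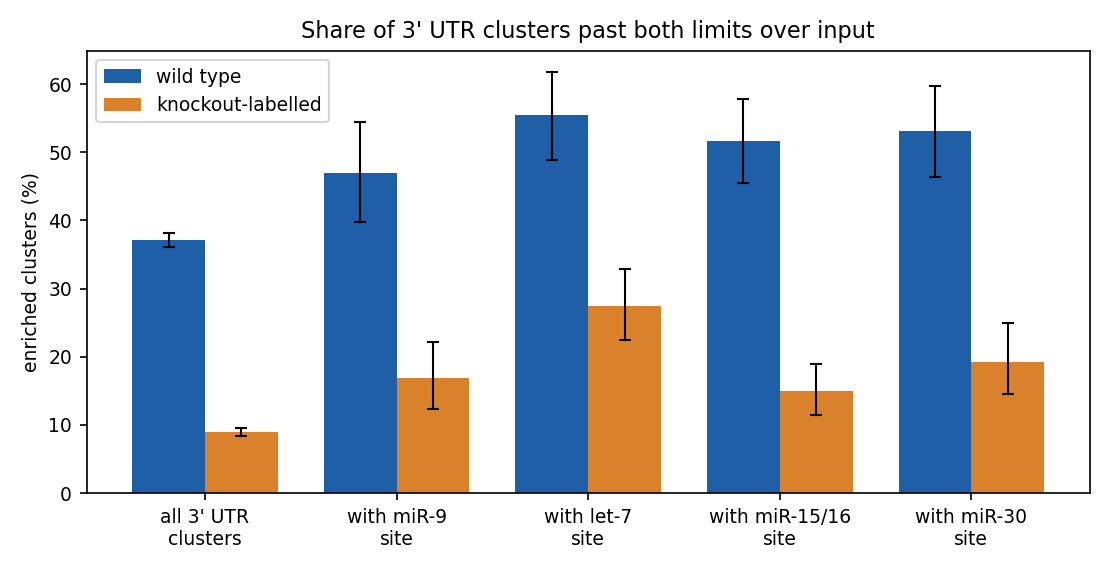
Percent of 3' UTR clusters past both limits over input (−log10 p and log2 of 3), for all 3' UTR clusters and for those with a miR-9, let-7, miR-15/16 or miR-30 site, for wild type (blue) and the knockout-labelled library (orange), with 95% exact binomial intervals. The miR-9 bars, at 47% and 16.9%, stand above the bars of all 3' UTR clusters at 37.1% and 8.98%. The same limits asked for more reads in the knockout-labelled library.

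Fewer than 1 in 2 miR-9 clusters had a counterpart in the other library. Of the 185 wild-type miR-9 clusters 89 (48.1%, 40.7 to 55.6%) overlapped a knockout-labelled cluster by at least 1 base, against 32.8% of all wild-type 3' UTR clusters. Of the 243 knockout-labelled ones 89 (36.6%, 30.6 to 43%) overlapped a wild-type cluster, against 24.8%. Among enriched miR-9 clusters, 36 of 87 in wild type (41.4%, 30.9 to 52.4%) overlapped an enriched knockout-labelled cluster, against 20.9% of enriched 3' UTR clusters, and 35 of 41 in the other direction (85.4%, 70.8 to 94.4%), against 67.7%. Depth moved with these shares: at 10 or more IP reads, 24 of 29 wild-type miR-9 clusters overlapped a knockout-labelled cluster (82.8%, 64.2 to 94.2%), against 82.8% of all 3' UTR clusters of that depth. For the knockout-labelled library at that depth it was 36 of 38 (94.7%, 82.3 to 99.4%), against 74.8%.

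Enriched clusters of both libraries met at 36 miR-9 sites, 21 of them 8mers, in 33 genes. Pou2f1 and Mdga1 each had 2 of these sites within 25 bases of 1 cluster, so the 36 sites belonged to 34 pairs of clusters. Over the pairs the wild-type IP reads ran from 5 to 72 (median 10) and the knockout-labelled ones from 9 to 58 (median 14). The log2 over input ran from 4.25 to 7.83 (median 5.66) and from 3.16 to 5.98 (median 4.43). It was higher in wild type at 32 of 34 pairs. Equal reads also give that direction, as input depth over IP depth was 6.337 for wild type and 1.918 for the other library. Mdga1 and Pitpnm2 were the other two.

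**Figure D4:**
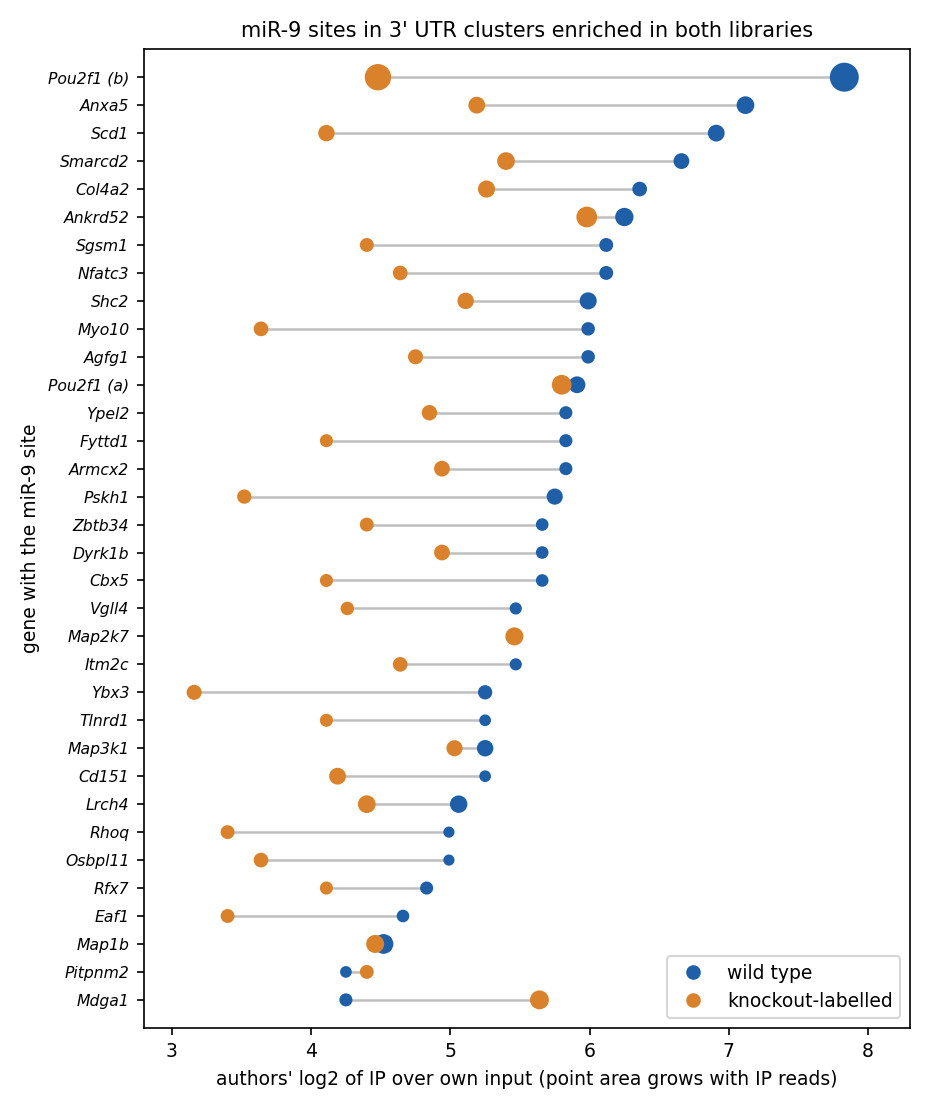
The authors' log2 of IP over own input at the 34 pairs of 3' UTR clusters with a miR-9 site that were enriched in both the wild-type (blue) and the knockout-labelled (orange) library, 1 row per pair, named by gene, with the area of a point growing with its IP reads. Pou2f1 leads with 72 and 58 reads, and the wild-type point is the higher one in 32 of 34 rows. Equal reads give a lower log2 in the knockout-labelled library.

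The 33 genes are given by what they are known for, a grouping made after their values were seen and not tested. The reads given are those of the whole cluster. At Map2k7, Osbpl11 and Lrch4 the match lay wholly outside the wild-type cluster whose reads are given, within the 25 added bases. Among genes of transcription and chromatin, Pou2f1, which encodes the transcription factor Oct-1, had the highest −log10 p of all miR-9 clusters in both libraries. At its site 9390 bases into a 3' UTR of 10587 bases, there were 72 wild-type IP reads over 2 input reads (log2 7.83, −log10 p 59.01) and 58 knockout-labelled reads over 5 (4.48, 20.81). Of its pair of sites 46 bases apart, the upstream one lay inside a cluster of 19 reads over 2 for wild type (5.91), and of 29 over at most 1 for the knockout-labelled library (5.80). The downstream one lay wholly outside both clusters, its far end 20 and 7 bases past their edges, and was reached through the 25 added bases. Of 8 matches in this 3' UTR, 5 lay within 25 bases of a cluster of either library. The fourth marked 8mer had 5 wild-type reads and was enriched in wild type, and 6 reads in the knockout-labelled library, short of the limits; the fifth, a 7mer-m8 site, had 3 reads in each and was not enriched. Smarcd2, a subunit of the BAF chromatin remodelling complex, had 16 wild-type reads and 22 knockout-labelled reads over at most 1 input read (6.66 and 5.40). Cbx5, the heterochromatin protein HP1-alpha, had 8 and 9 reads, and Nfatc3, a calcium-regulated transcription factor, 11 and 13. The others of this group were Rfx7 (a transcription factor, 9 and 9 reads), Vgll4 (a cofactor of TEAD factors, 7 and 10), Eaf1 (an elongation factor partner, 8 and 11) and Zbtb34 (a zinc finger protein, 8 and 11).

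Signalling genes formed another group. Ankrd52, a subunit of the protein phosphatase complex that acts on phosphorylated AGO2, had 24 wild-type reads over 2 input reads (6.25) and 33 knockout-labelled reads over at most 1 (5.98), at a site 3276 bases into a 3' UTR of 3288. Map3k1 and Map2k7 are kinases of the JNK pathway: Map3k1 had 18 and 17 IP reads (5.25 and 5.03), and Map2k7 7 and 23 (5.47 and 5.46). Shc2, an adaptor of receptor tyrosine kinases, had 20 and 18 reads, the kinase gene Pskh1 17 and 12, the kinase gene Dyrk1b 8 and 16, and Rhoq, a small GTPase, 5 and 11. Sgsm1, a regulator of small GTPases, had 11 reads in each.

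Genes of the cytoskeleton, cell surface and matrix came next. Map1b encodes a microtubule-binding protein of growing axons, and its mRNA is a known target of both miR-9 and FMRP. It had 29 wild-type reads over 8 (4.52, −log10 p 28.58) and 23 knockout-labelled reads over 2 (4.46, 8.57) at its single match, 913 bases into a 3' UTR of 4363. Anxa5, a phospholipid-binding annexin, had 22 and 19 reads, both over at most 1 input read (7.12 and 5.19). Mdga1, a membrane protein that binds neuroligins, had 9 wild-type reads over 3 (4.25) and 26 knockout-labelled reads over at most 1 (5.64) across its 2 sites. Col4a2, a basement membrane collagen, had 13 and 20 reads, Myo10, the myosin of filopodia, 10 and 13, and the tetraspanin gene Cd151 6 and 19. Itm2c had 7 and 13 reads, Lrch4 21 and 22, and Tlnrd1, a protein with a talin rod domain, 6 and 9. Armcx2, not placed in a group, had 9 and 16.

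Most of the remaining genes served lipids, RNA and traffic. Scd1, the stearoyl-CoA desaturase, had 19 wild-type reads over at most 1 (6.91) and 18 knockout-labelled reads over 2 (4.11). Osbpl11, of the oxysterol-binding proteins, had 5 and 13 reads and Pitpnm2, a phosphatidylinositol transfer protein, 6 and 11. Ybx3, a cold-shock domain RNA-binding protein, had 12 and 14, Fyttd1, of mRNA export, 9 in each, and Agfg1 10 and 14. Ypel2, likewise not placed in a group, had 9 and 15.

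A further 50 genes had miR-9 clusters that passed the limits in wild type alone. In alphabetical order these were first Abca2, Ank2, Arhgef17, Carm1, Cbx6, Cnnm1, Ctnnd1, Dlc1, Dtna, Dusp18, Elmo1, Erbin, Ern1, Faf2, Fam8a1, Flrt3 and Foxp2. Then came Gdf11, Gm49353, Hcfc2, Hcn2, Hic2, Icmt, Kcnk3, Kctd12, Magt1, March6, Mga, Mical2, Mrtfb, Myh9, Myo1c, Nedd4 and Nfia. The last were Pcdh1, Plscr3, Rbms3, Rgs7bp, Rnf150, Rprd2, Scrib, Sdad1, Slc31a2, Slc39a3, Tbpl1, Tmed8, Trib3, Trim2, Xpr1 and Zbtb7a. Of the 53 wild-type-enriched sites not enriched in the other library, 27 had a knockout-labelled cluster, with 3 to 25 IP reads (median 6), and 21 of those had fewer than the 9 reads with which a cluster could pass there. The other 26 had no knockout-labelled 3' UTR cluster at the site, which is not an absence of reads. Their wild-type clusters had 5 to 15 reads (median 6). The regions of the authors' deposited table at these sites held 1 to 43 knockout-labelled reads (median 3), the most at Abca2, where a count of 1 stands for at most 1. By −log10 p the first was Ank2, which encodes the axonal scaffold ankyrin-B, with 25 wild-type reads over 3 (5.72) and a knockout-labelled cluster of 25 reads over 9 (2.41, −log10 p 5.46), short of the limit on log2. Nedd4, a ubiquitin ligase, had 14 reads over at most 1 (6.47) and 23 over 6 (2.88). Foxp2, the transcription factor of speech and motor circuits, had 15 reads over at most 1 (6.57) at its first marked site and no knockout-labelled cluster there, but a cluster of 5 reads, not enriched, at its second marked site 690 bases on.

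In 6 genes the miR-9 cluster passed the limits in the knockout-labelled library alone: Aldh2, Bcl2l11, Celf4, Foxp4, Ppp4r1 and Zfp266. Zfp266, a zinc finger gene, had 24 reads over at most 1 (5.52, −log10 p 9.94) at an 8mer 41 bases past its stop codon, with no wild-type cluster at the site. Bcl2l11, the cell death gene known as Bim, had a cluster in both libraries, of 4 wild-type and 10 knockout-labelled reads. The other 4 had 9 or 10 knockout-labelled reads and no wild-type cluster at the site.

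The other 210 genes had clusters that did not reach the limits, most of them of few reads. In 23 genes such clusters were seen in both libraries, not always at the same site: Ammecr1, Atp1b1, Cntfr, Edem3, H6pd, Hps4, Kif1b, Maml2, Napb, Nrxn3, Onecut2, Plpp6, Prnp, Ptbp2, Ptbp3, Stk38l, Szrd1, Tmcc1, Tmem136, Tnc, Ube3c, Usp31 and Zfp597. In wild type alone there were 57. Those reported here were, in order of name, 2310033P09Rik, Aard, Actr1a, Acvr1b, Arl4c, B230219D22Rik, Bahd1, Cdkn2aipnl, Cep164, Cfl2, Cyhr1, Dcdc2a, Dcun1d4, Ddi2, Enpep, Ephb4 and Foxj1. Next in order stood Gm28043, Gpr26, Hic1, Hist1h4d, Idua, Larp1, Lmna, Map3k3, Mef2c, Mpp3, Onecut3, Patl1, Ppp6r3, Pptc7, Purb, Rab12, Rap2c, Rassf2 and Rgs19. Those last by name were Rnf128, Rnf19a, Sema3a, Sfmbt1, Slc25a40, Slc5a3, Sort1, Spast, Srsf10, Tbc1d22a, Timm17a, Togaram1, Txndc5, Vav3, Zbtb38, Zdbf2, Zfp580 and Zmat3. The knockout-labelled library alone gave 130 genes. Those reported here began with 4930579G24Rik, 8030462N17Rik, Abl2, Agpat3, Ajm1, Alcam, Ano6, Ap4e1, Apbb2, Arhgap20, Arpp19, Asxl3, Bicd1, Cacna2d1, Camkk2, Card19, Cblb, Ccdc6, Ccdc88a, Ccni, Cdc25a, Celf1, Clcn5, Cnot6l, Cntn3 and Coa7. They went on with Col25a1, Cpeb4, Cxcr4, Cyb561, Ddhd2, Ddx17, Derl1, Diaph1, Eif4e, Epha7, Ephb2, Ercc6l2, Evi5l, Fbxw2, Fgd4, Fignl2, Fnip2, Foxo3, Foxp1, Frmd6, Fxyd5, Galnt3, Gigyf1, Glcci1, Gmeb2 and Grik3. After these came Hipk3, Hmgxb3, Igf2bp3, Iqgap1, Itm2b, Jakmip2, Lin28b, Lipa, Lpgat1, Lrrcc1, M6pr, Map3k2, Mapkapk2, Mbnl1, Mcf2l, Minar2, Morc2a, Ncoa1, Ndrg1, Nelfb, Nfasc, Nrp2, Nup62, Pcsk2 and Peak1. Then followed Pgm2l1, Pi4k2a, Pip4k2c, Pitpnm3, Plxna2, Polr1a, Ppip5k2, Prrc2c, Ptprg, Rad9a, Radil, Rbm5, Rbms1, Reep4, Rims3, Rnf24, Rtn3, Rtn4rl1, Serpini1, Sez6, Sh3rf3, Slc20a2, Slc22a23 and Slc6a6. The list closed with Smarce1, Snrk, Sorl1, Spag9, Stard13, Strbp, Syap1, Tanc2, Tenm1, Tln1, Tmem109, Trim9, Tsc22d1, Ube2z, Vamp3, Vangl1, Vcan, Wscd2, Xpc, Yme1l1, Zbtb41, Zdhhc20, Zfp131, Zfp324, Zfp354a and Zfp764.

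Of 34 genes listed as miR-9 targets, 23 had a 3' UTR cluster, 16 had both a match and a 3' UTR cluster, and 8 had a cluster at a match. Among all genes, 299 of the 1220 with a match and a 3' UTR cluster had one at a match. Map1b and Foxp2, given above with 29 and 15 wild-type reads, were enriched, and the other known targets named here had 3 to 6 reads at a site. Mef2c, a neuronal transcription factor, had 4 wild-type reads over at most 1 at its 8mer (4.66), with no knockout-labelled cluster there. Foxp1 (3 reads), Lin28b, the let-7 inhibitor (6 reads), and Cxcr4, a chemokine receptor (5 reads), were marked only in the knockout-labelled library. Onecut2, a transcription factor with 14 matches in its annotated 3' UTR, had 4 marked 8mers, all of 4 reads: 1 by a wild-type cluster, and 3 by knockout-labelled clusters, of which a pair shared 1. None was enriched. The other 26 listed genes, among them Rest, Nr2e1 and Hes1, had no cluster at a match, and Hes1 had no match in its 3' UTR.

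In each other list, the count of genes with a miR-9 cluster is given beside the genes with both a match and a 3' UTR cluster, of which 299 of 1220 had one over all genes. Of 50 transcription factors of neuron formation 7 had one, of 16 with both, and Foxp2, Nfia (6 wild-type reads, 5.25) and Foxp4 (9 knockout-labelled reads, 4.11) were enriched in 1 library each. Of 46 genes of the cytoskeleton and axon guidance 4 had one, of 12 with both: Map1b and Ank2, both enriched, and the receptors Plxna2 and Ephb2, with 5 and 3 knockout-labelled reads. Map1b and Ank2 were also the only 2 of 33 FMRP-bound mRNAs with one, of 6 with both. Of 48 RNA-binding and microRNA pathway genes 5 had one, of 15 with both, none enriched: Celf1 (8 knockout-labelled reads), Ptbp2 (3 wild-type and 7 knockout-labelled reads), Lin28b, Cpeb4 and Cnot6l. Of 43 synapse and ion channel genes 3 had one, of 9 with both, Grik3 and Nrxn3 among them, and none was enriched. Igf2bp3 was the only 1 of 36 growth signalling genes, of 8 with both, and none of 32 chromatin regulators on the list had one, of 4 with both, although Smarcd2 and Cbx5, which were not on it, did. These lists and members were not tested against each other.

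Several genes were marked at more than 1 match. Besides Pou2f1 with 5 and Onecut2 with 4, 19 genes had 2: Alcam, Cbx5, Ddhd2, Faf2, Fam8a1, Foxp2, Hic2, Kif1b, Mdga1, Napb, Nfatc3, Pcdh1, Ptbp3, Slc31a2, Srsf10, Stard13, Tnc, Trim2 and Zfp764. Matches that share a cluster do not count as independent marks. A single wild-type cluster served 2 matches in Fam8a1, Mdga1, Pou2f1, Srsf10 and Trim2. A single knockout-labelled cluster did so in Alcam, Ddhd2, Fam8a1, Mdga1, Onecut2, Pou2f1, Stard13 and Zfp764.

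The authors' deposited table compares the wild-type IP with the knockout-labelled IP over regions of which 46799 were identical to wild-type clusters, so it was built on places called in wild type and holds few that only the other library called. In the authors' deposited table the log2 was above 0 at 178 of the 185 miR-9 regions, against 94.8% of all 3' UTR regions, with a median of 1.51 (quartiles 0.77 and 2.77), against 1.93 over all 3' UTR regions. The knockout-labelled IP held 2.278 times the reads of the wild-type IP, and 3 wild-type reads against at most 1 gave 2.77, the upper quartile. At 20 or more reads in both IPs together, the authors' deposited table had a median of 0.81 (quartiles 0.60 and 1.22) over 32 miR-9 regions and of 0.77 (0.19 and 1.31) over 914 3' UTR regions. At 10 to 19 reads both medians in the authors' deposited table were 1.19. At 5 to 9 reads the authors' deposited table had a median of 1.60 for miR-9 regions and of 1.93 for all.

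**Figure D5:**
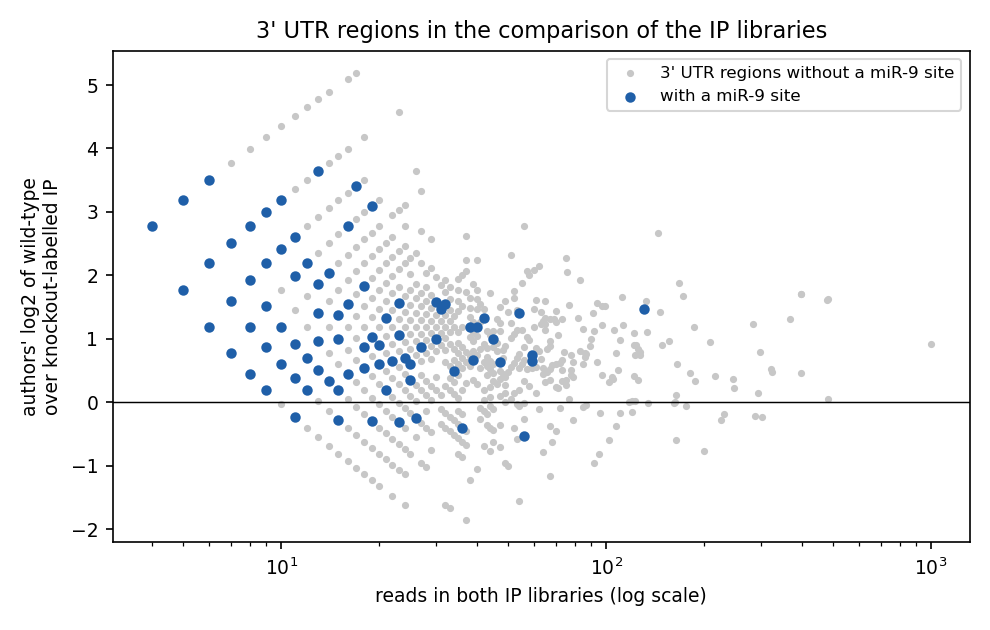
The authors' log2 of wild-type over knockout-labelled IP against the reads of both IPs (log scale) for 3' UTR regions, grey without and blue with a miR-9 site; regions with the same reads share a point. The spread narrows with depth, and the 32 miR-9 regions with 20 or more reads have a median of 0.81 against 0.77 for 3' UTR regions of that depth.

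In the authors' deposited table, 7 miR-9 regions were higher in wild type (−log10 p of at least 3 and log2 of at least 1) out of 185, against 3.81% of all 3' UTR regions. None was lower, against 0% of 3' UTR regions; the table lists a −log10 p of 0 wherever the log2 is below 0, and a p computed from the reads in both directions gave the same counts. Knockout-labelled reads in the following are those inside the wild-type region, and so can differ from those of the library's own cluster. The 2 deep ones in the authors' deposited table were Pou2f1, with 72 wild-type and 59 knockout-labelled reads (log2 1.48, −log10 p 8.67), and Map1b, with 29 and 25 (1.40, 3.42). The other 5 in the authors' deposited table held at most 15 wild-type reads: Foxp2 (15 and 4 reads, 3.09), Slc39a3, a zinc transporter (12 and 4, 2.77), the arginine methyltransferase gene Carm1 and the polarity gene Scrib (both 14 and 3, 3.41), and Dtna, a partner of dystrophin (11 and 2, 3.65). At Carm1 most of the match lay outside the region, within the added bases.

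Among the 32 regions with 20 or more reads, the authors' deposited table also ranked Pskh1 (17 and 13 reads, 1.58), Fam8a1 (13 and 10, 1.57), Map3k1 (18 and 14, 1.55), Lrch4 (17 and 14 in a region adjoining the one given above, 1.47), Sgsm1 (11 and 10, 1.33) and Anxa5 (22 and 20, 1.33) near the top, short of the limit on p. The lowest in the authors' deposited table were Abca2, a lipid transporter (13 and 43 reads, −0.54), Mdga1 (9 and 27, −0.40), Cd151 (6 and 17, −0.31) and Map2k7 (7 and 19, −0.25), the 4 regions below 0 at this depth. Next came Itm2c (0.19), Armcx2 (0.36), Col4a2 (0.50) and Eaf1 (0.60) in the authors' deposited table. The matches of Abca2 and Map2k7 lay wholly outside the regions scored there, within the added bases. Within Map1b, the authors' deposited table gave the region at the miR-9 site the highest log2 of its 10 3' UTR regions (1.40, median 0.48), while the median over its 34 coding regions was −0.82 (−2.10 to 0.73). Within Pou2f1, the authors' deposited table gave the deep region at the miR-9 site a log2 of 1.48. That was below the median of the gene's 14 3' UTR regions (1.70, up to 3.51), most of which held fewer than 20 reads. Among the 4 with 20 or more reads it was the highest (median 1.03). The median over 6 coding regions of the gene was 1.33.

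The 3 miR-9 genes themselves had clusters over the mature sequence in both libraries. The knockout-labelled cluster at Mir9-1 (6 reads, log2 3.52, −log10 p 2.1) was short of the limit on p. For each gene, the region with the highest −log10 p in the authors' deposited table is given. Its log2 was 3.02 for Mir9-1 (25 and 7 reads), 1.41 for Mir9-2 (21 and 18) and 2.66 for Mir9-3 (94 and 34). The −log10 p in the authors' deposited table was 7.82, 2.56 (short of the limit) and 24.9. Beside these, 94.8% of 3' UTR regions had a log2 above 0, and a difference in miR-9 between the libraries was not tested.

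The series title names G-quadruplexes, four-stranded folds of guanine-rich RNA. A predicted one (4 guanine runs, each 3 or longer, joined by loops no longer than 7 bases) lay within 50 bases of 3 of 185 wild-type miR-9 clusters (1.62%, 0.336 to 4.67%), against 3.15% of 3' UTR clusters, in Cd151, Hic1 and Pou2f1. In the knockout-labelled library it lay by 5 of 243 (2.06%, 0.671 to 4.74%), against 2.69%, in Aldh2, Cd151, Fbxw2, Pou2f1 and Ypel2. Both intervals held the background share. Among seeds of other microRNAs in the same windows, miR-15/16 was the most frequent, at 7 of 185 (3.78%, against 3.11% of 3' UTR clusters) for wild type and 11 of 243 (4.53%, against 3.5%) for the other library. Of the seeds compared, that of miR-128, a microRNA of neurons, was the least frequent in wild type. A match to it stood beside 0 of 185 miR-9 clusters, which allows up to 1.97%, against 2.47% of 3' UTR clusters. In the knockout-labelled library it stood beside 3 of 243 (1.23%, 0.255 to 3.57%), an interval that held the background of 2.3%. As the extreme of many seeds, the wild-type value is a description and was not tested.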

How the data were processed

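Adapters were trimmed with cutadapt 1.15, reads mapping to mouse repeats were removed, the rest were mapped to mm10 with STAR 2.6.0c, duplicates were removed with UMI tools 5.2, and CLIPper 1.4 called the clusters of each IP, per the labels' protocols. The deposited columns are a −log10 p and a log2 ratio of IP over input, or of wild-type over knockout-labelled IP in the table for the series. Repeat removal and calling per library limit which sites can appear. Midpoints were placed on GENCODE M21 and sequences read from GRCm38 (mm10), with Python 3.11.15, pandas 2.3.3 and pysam 0.24.0. Whole-number ratios explained 99.96% or more of the deposited log2 values (tolerance 1e-09), and read counts were recovered from them and from p; 42188 of 42188 wild-type counts were equal from both tables. Median IP reads per cluster were 4. Only the authors' p was used, since there was 1 library per genotype. Intervals are exact Clopper-Pearson (95%, scipy 1.17.1) and cover counting error only. Named genes were the 12 members with the highest −log10 p per library, all enriched in both, the 8 highest and lowest members of the series table with 20 or more reads, known targets, genes with several sites and up to 4 of each other list. Members and lists were chosen with earlier results of these data known. The recovery of reads and the site search were tested on simulated data. Seeds of microRNAs missing from the RefSeq table were not analysed here, and input files were not used here. Some genes are not reported here.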

Additional observations from a re-analysis of the deposited data

How the results depend on the processing

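No paired analysis was possible because each genotype had 1 library and the labels carry no replicate numbers. Without the 25 added bases, wild-type and series-table members fell to 121, and with 8mers only to 83 in both and 101 in the knockout-labelled library. The enriched share became 28.6% (wild type) and 9.05% (knockout-labelled) at limits of 5 and 4, against 16.8% and 3.67% of 3' UTR clusters. It became 56.2% and 23.3% without the added bases, 23.8% with 8mers only in the knockout-labelled library, and 98.9% and 30.4% with 5 or more IP reads (chosen after seeing the data), against 91.3% and 21.9%. The median log2 of the authors' deposited table became 0.81 at 20 or more reads, −0.42 after centring on all 3' UTR regions, 0.03 with both and −0.42 under 20 reads with centring (chosen after seeing the data); the cause was not tested. At limits of 5 and 2, 0 members of the authors' deposited table passed, against 7. Sites wholly inside a cluster were 10.4% of 8mers and 4.74% of 7mer-m8 sites for wild type and 6.32% of 7mer-m8 sites in the knockout-labelled library. With runs of 2 guanines, 21.1% and 23% of members lay beside a predicted G-quadruplex, against 21.2% and 22%. The other 19 of 41 alternatives stayed within the interval, or within 1.5 times the count, of the value reported. The median of 4 reads per cluster limits the precision of each site's values.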

Other observations

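miR-9 matches were also found in clusters of coding sequence. In wild type 315 of 13986 coding clusters held one within 25 bases (2.25%, 2.01 to 2.51%), close to the 2.15% of 3' UTR clusters, and 119 of these 315 were enriched (37.8%, 32.4 to 43.4%), against 21.2% of all coding clusters. In the knockout-labelled library 522 of 31675 coding clusters held one (1.65%), below the 2.28% of 3' UTR clusters, and 20 of these 522 were enriched (3.83%, 2.36 to 5.86%), against 1.65%. Intron clusters with a match were enriched in 27.8% of cases in wild type (22.5 to 33.5%), against 18.4% of all intron clusters, and in 3.91% in the knockout-labelled library (2.41 to 5.98%), against 1.09%. In 5' UTRs 9 of 1542 wild-type clusters (0.584%) and 17 of 3551 knockout-labelled clusters (0.479%) held a match.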
